A study of Mus musculus with 13 samples.

Results

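The transcripts described here are those of 10 skeletal muscle genes, each read from 1 probe set of an Affymetrix mouse expression array, out of 22690 probe sets in the deposited table. The probe sets were chosen by their identifiers, each standing for a gene that mature fast skeletal muscle transcribes at a high level: Acta1 (1427735_a_at), Ckm (1417614_at), Mylpf (1448371_at), Tnnc2 (1417464_at), Tnni2 (1416889_at), Myh4 (1427026_at), Atp2a1 (1419312_at), Pvalb (1417653_at), Eno3 (1417951_at) and Actn3 (1418677_at). All 10 were found in the table. The gene assignment came with the list of identifiers, because the deposited table holds identifiers alone.

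The samples were cutaneous melanomas, 1 array per tumor, from mice that carried a transgene for hepatocyte growth factor/scatter factor (HGF/SF) under control of a metallothionein gene promoter. The mice also carried an inactivating mutation in ARF or in INK4a, the tumor suppressors encoded by Cdkn2a. The 13 tumors comprised 5 ARF heterozygous, 1 ARF null, 3 INK4a heterozygous and 4 INK4a null melanomas. All mice shared the transgene, a mostly FVB/N background with a C57BL/6 part, and a single UV dose at 3.5 days of age. No tumor without the transgene, no normal skin and no muscle sample was among the arrays. The sources used here do not give the age of the mice at tumor collection or the mouse each tumor came from, so the tests below measure the spread between these tumors. Ink4a stands in the titles of the ARF-deficient samples although their genotype labels, which were followed, name ARF. Tumors are called by the numbers in their titles.

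Skeletal muscle fibers contract when actin and myosin filaments slide past one another in the sarcomere. Calcium released from the sarcoplasmic reticulum binds the troponin complex on the thin filament, which frees the actin for myosin, and contraction ends when the calcium is pumped back. In mouse skin, a thin striated muscle sheet, the panniculus carnosus, lies beneath the dermis and the subcutaneous fat. The array measures RNA from the whole piece, in which fewer muscle fibers and less muscle RNA per fiber cannot be told apart.

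The deposited values are logarithms, read here as log2, centred for each probe set on the median of the 13 tumors. A value of 0 is thus the middle tumor for that gene, and a value of 1 is a doubling relative to it. The values carry no levels, so they rank the tumors for each gene but do not show whether a low tumor held any muscle RNA, and levels of different genes were not compared. Markers of melanocytes and of other cell types were not analysed here, because the table does not pair the remaining probe sets with genes. The tumor label was therefore not checked against melanocyte markers.

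To describe the regulatory sequence of the members, the promoter table of RefSeq (build GRCm38.p6) was searched in the 250 bases before each transcription start on both strands. It held 9 promoters of 8 member genes, with none for Tnni2 and Actn3. Myogenic factors such as MyoD bind E-boxes (CANNTG), and 8 of the 9 member promoters held one, against 66.2% of all 32851 promoters in the table. The E-box with the core CAGCTG, picked out after the matches had been seen and contained in the preceding count, was found in 5 of the 9, against 13.0% of all promoters. The CArG box, which serum response factor binds, was found in the promoters of Acta1 and Myh4 and in 1.47% of all promoters. A site for MEF2, a muscle transcription factor, was found in the promoters of Myh4 and Pvalb and in 2.92% of all promoters. CATTCC, the MCAT element bound by TEAD factors, was found in 3 of the 9 (Acta1, Myh4 and Eno3) and in 12.6% of all promoters. Myh4 was the member whose promoter held all of these motifs. A match describes the letters in this window and is no evidence of binding. Whether the motifs bear on the shared movement of the members across the tumors was not tested. The CAGCTG match of Ckm, at the edge of the searched bases, and the CATTCC matches are not shown. The stretches around the other matches follow, with the CAGCTG core in capitals in the first 4, the CArG box in the next 2 and the MEF2 site in the last 2.
Acta1 (chr8:123894971-123895016, minus strand): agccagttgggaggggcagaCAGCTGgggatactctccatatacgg
Mylpf (chr7:127211537-127211582, plus strand): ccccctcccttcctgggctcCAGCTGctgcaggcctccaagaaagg
Atp2a1 (chr7:126463103-126463148, minus strand): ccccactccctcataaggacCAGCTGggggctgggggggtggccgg
Myh4 (chr11:67237725-67237770, plus strand): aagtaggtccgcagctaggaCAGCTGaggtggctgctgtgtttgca
Acta1 (chr8:123894819-123894868, minus strand): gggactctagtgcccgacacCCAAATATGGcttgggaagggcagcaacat
Myh4 (chr11:67237688-67237737, plus strand): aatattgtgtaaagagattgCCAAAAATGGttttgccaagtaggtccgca
Myh4 (chr11:67237610-67237659, plus strand): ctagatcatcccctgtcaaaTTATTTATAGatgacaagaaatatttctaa
Pvalb (chr15:78206551-78206600, minus strand): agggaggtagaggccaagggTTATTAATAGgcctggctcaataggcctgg

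High muscle values were found in a few tumors of both deficiencies. ARF heterozygous tumor 12 had the highest value of all 13 tumors for each of the 10 genes. ARF heterozygous tumor 14, INK4a null tumor 3 and INK4a heterozygous tumor 6.2 were among the 5 highest tumors for all 10 genes, and ARF null tumor 10 for 9 of them, the exception being Eno3. The mean of the 10 genes was 4.46 in tumor 12, 3.00 in tumor 14, 2.59 in tumor 3, 2.07 in tumor 6.2 and 1.22 in tumor 10. A middle set followed, with a mean of 0.30 in ARF heterozygous tumor 9, 0.05 in INK4a heterozygous tumor 5.2 and -0.30 in ARF heterozygous tumor 13. The lowest means were -0.84 in INK4a null tumor 7.2, -1.12 in ARF heterozygous tumor 8, -1.40 in INK4a null tumor 1.2, -1.49 in INK4a null tumor 2.2 and -1.49 in INK4a heterozygous tumor 15. Among the 4 genotype groups, only ARF null, which is a single tumor, did not hold both positive and negative means.

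**Figure D1:**
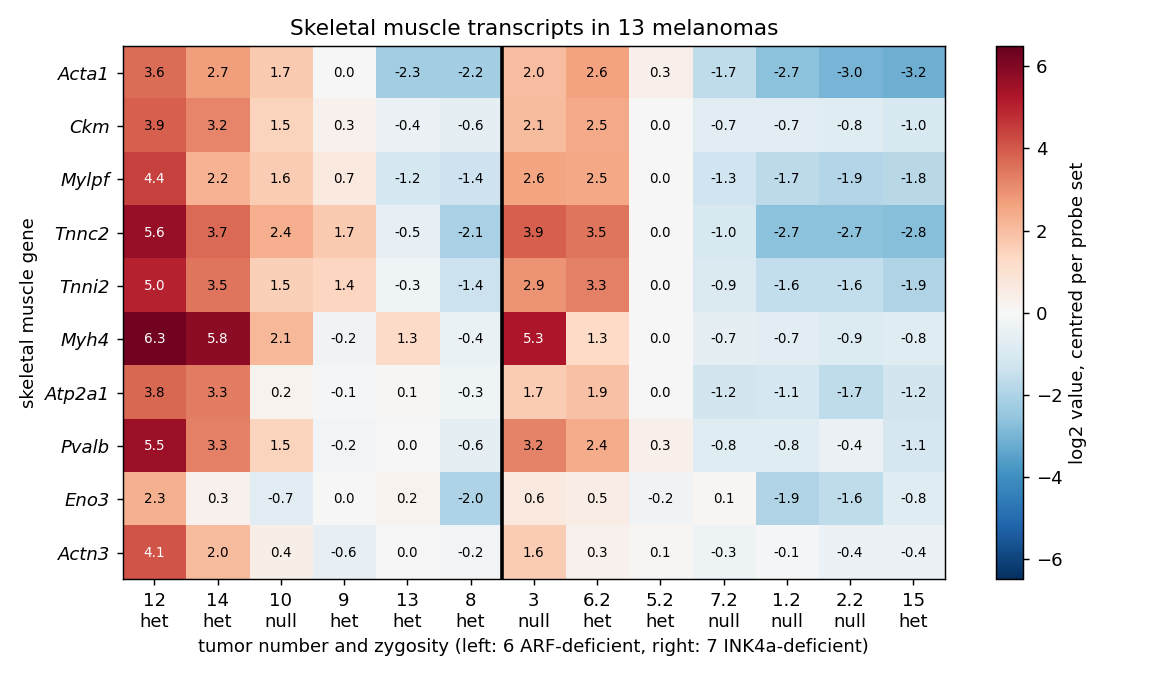
Log2 value of each muscle gene (rows) in each of the 13 melanomas (columns), centred per probe set and printed in the cells, with ARF-deficient tumors left of the line and INK4a-deficient tumors right of it, each ordered by the mean of the 10 genes. Red cells (above the middle tumor) fill the columns of tumors 12, 14, 3 and 6.2, and blue cells (below it) those of tumors 8, 1.2, 2.2 and 15.

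In tumor 12 all 10 genes lay above 2, where 1.67% of the 22626 probe sets other than Affymetrix controls did. In tumor 14 it was 9 of the 10, all but Eno3, against 0.164% of all probe sets. These 9 were among the 37 probe sets above 2 in that tumor. In tumor 3 it was 6 of the 10, against 0.327% of all, and in tumor 6.2 also 6 of the 10, against 1.93% of all. In tumor 10 the 2 genes above 2 were Tnnc2 and Myh4, against 0.155% of all. No muscle gene exceeded 2 in the other 8 tumors. Within an array, Myh4 had the highest value of all probe sets tested in tumor 14 and in tumor 3, and the fourth highest in tumor 12. Tumors 12 and 6.2 thus differed from tumors 14, 3 and 10 in how many probe sets were high. With the muscle genes included, 377 and 436 lay above 2 in tumors 12 and 6.2, against 37, 74 and 35 in tumors 14, 3 and 10. Which genes the other probe sets stand for was not analysed here, and their part in the muscle values was not tested.

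The order of the high tumors depended on the normalization between arrays. With quantile normalization, which gives every array the same spread, the same 5 tumors had the highest means. Tumor 12 was then the highest for 3 of the 10 genes (Mylpf, Eno3 and Actn3). Tumor 14 stood first with a median of 3.91 over the 10 genes, before tumor 12 with 2.88 and tumor 3 with 2.50. The median of tumor 10 was 1.96, with 5 genes above 2, and that of tumor 6.2 was 1.34, with no gene above 2.

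Genes of the contractile filaments varied among the most in the whole table. Myh4, the fast myosin heavy chain of the fastest mouse fibers, was 6.27 in tumor 12, 5.79 in tumor 14 and 2.14 in tumor 10 of the ARF-deficient tumors, and -0.20, 1.27 and -0.42 in tumors 9, 13 and 8. In the INK4a-deficient tumors Myh4 was 5.27 in tumor 3 and 1.28 in tumor 6.2, and it lay between -0.89 and 0.00 in the other 5. Tumors 12, 14 and 3 stood apart from all others for this gene, and tumor 13 was above the middle for Myh4 while it was below it for Acta1 (-2.26).

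Acta1, the actin of the skeletal muscle thin filament, spread to both sides of the middle. It was 3.64 in tumor 12, 2.73 in tumor 14, 1.71 in tumor 10 and 0.00 in tumor 9, and -2.26 and -2.23 in tumors 13 and 8 of the ARF-deficient group. In the INK4a-deficient group it was 2.63 in tumor 6.2, 1.99 in tumor 3, 0.33 in tumor 5.2, -1.65 in tumor 7.2, -2.69 in tumor 1.2, -3.04 in tumor 2.2 and -3.19 in tumor 15. The highest and the lowest tumor were thus 6.83 apart. Mylpf, the regulatory light chain of fast myosin, ran from -1.88 in tumor 2.2 to 4.45 in tumor 12, with 2.55 in tumor 3, 2.51 in tumor 6.2 and 2.25 in tumor 14. With quantile normalization, the Mylpf values of these last 3 were 2.75, 1.37 and 2.91, so that tumor 6.2 was then lower.

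The troponin subunits of fast fibers moved nearly in parallel. Tnnc2, which binds calcium, had the widest range of the 10 genes, 8.44 between tumor 12 (5.65) and tumor 15 (-2.79). It was 3.87 in tumor 3, 3.70 in tumor 14, 3.47 in tumor 6.2 and 2.39 in tumor 10. Tnni2, the inhibitory subunit, was 5.01 in tumor 12, 3.47 in tumor 14, 3.29 in tumor 6.2, 2.94 in tumor 3 and 1.53 in tumor 10, and its lowest value was -1.94 in tumor 15. Both were above 1 in ARF heterozygous tumor 9 as well, at 1.68 for Tnnc2 and 1.37 for Tnni2, where no other muscle gene exceeded 1. Actn3, which anchors actin at the Z-disc of fast fibers, was 4.08 in tumor 12, 2.04 in tumor 14 and 1.64 in tumor 3, and between -0.55 and 0.40 in the other 10 tumors.

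Calcium handling genes gave a similar order. Atp2a1, the calcium pump of the sarcoplasmic reticulum in fast fibers, was 3.75 in tumor 12, 3.32 in tumor 14, 1.89 in tumor 6.2 and 1.65 in tumor 3, but only 0.24 in tumor 10. Its lowest value was -1.66, in tumor 2.2. Pvalb, a soluble calcium buffer that speeds relaxation, was 5.54 in tumor 12, 3.29 in tumor 14, 3.25 in tumor 3, 2.43 in tumor 6.2 and 1.46 in tumor 10, and its lowest value was -1.08 in tumor 15.

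Of the energy genes, Ckm, which buffers ATP in muscle through creatine phosphate, followed the common pattern, and Eno3 followed it least. Ckm was 3.89 in tumor 12, 3.17 in tumor 14, 2.47 in tumor 6.2, 2.07 in tumor 3 and 1.46 in tumor 10, and between -0.98 and 0.30 in the other 8. Eno3, the muscle form of the glycolytic enzyme enolase, was 2.29 in tumor 12 and at most 0.62 in the other 12 tumors. It was lowest in tumor 8 (-2.02), followed by tumor 1.2 (-1.94), tumor 2.2 (-1.63) and tumor 15 (-0.81), and it was -0.75 in tumor 10, where 9 other muscle genes were above 0.

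The standard deviation of the 10 genes over the 13 tumors ran from 1.19 for Eno3 to 2.93 for Tnnc2, against a median of 0.27 over all probe sets tested. In the order of all standard deviations they stood between the percentiles 96.9 (Eno3) and 99.8 (Tnnc2), so that these 10 genes were among the most variable transcripts of these melanomas. The genes were chosen with earlier results of these data known, so their place in this order is a description.

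The profiles of the high tumors were not copies of one another. INK4a null tumor 3 and INK4a heterozygous tumor 6.2 differed by at most 0.64 in either direction for 7 of the genes, among them Mylpf (0.05), Atp2a1 (-0.24) and Acta1 (-0.64, lower in tumor 3). Myh4 was higher in tumor 3 by 3.99, Actn3 by 1.37 and Pvalb by 0.81. Between the heterozygous ARF tumors 12 and 14, all 10 genes were higher in tumor 12, by 0.44 (Atp2a1) to 2.26 (Pvalb), and Myh4 differed by 0.48. These differences depended on the scaling: with quantile normalization 7 of the 10 genes were lower in tumor 12 than in tumor 14, and all 10 were higher in tumor 3 than in tumor 6.2, only Eno3 by 0.64 or less. Myh4 was then 5.98 in tumor 3, where it was the highest probe set of the array, and 0.81 in tumor 6.2. Each tumor had 1 array, so differences between single tumors have no replicate check.

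**Figure D2:**
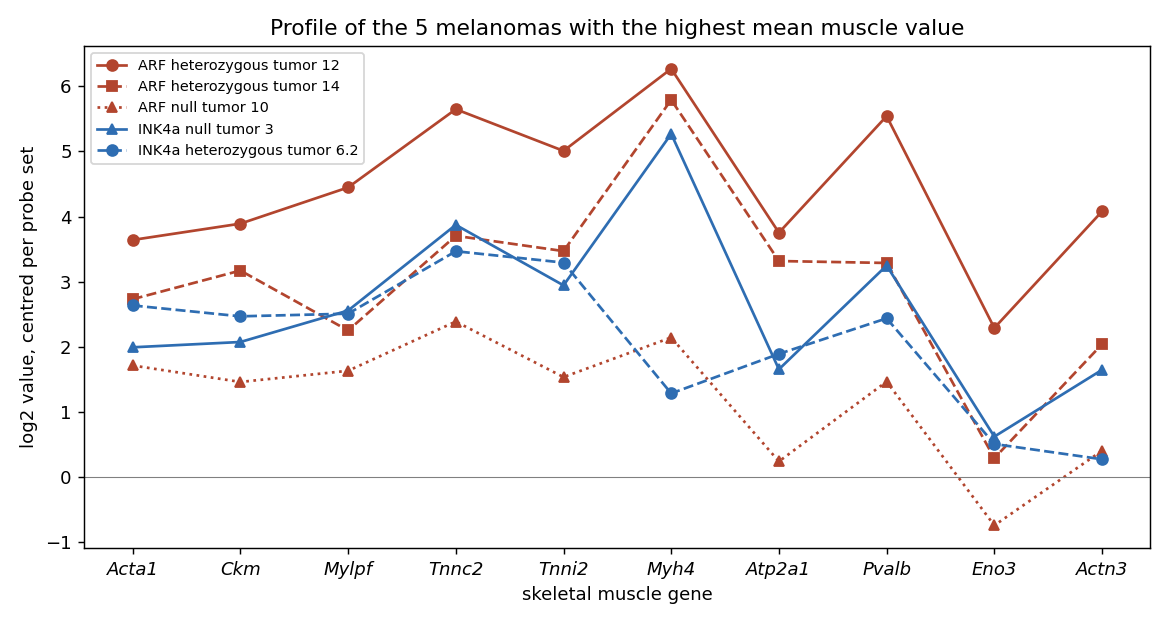
Log2 value, centred per probe set, of the 10 muscle genes in the 5 melanomas with the highest mean (ARF-deficient tumors 12, 14 and 10 in red, INK4a-deficient tumors 3 and 6.2 in blue). In these deposited values tumor 12 lies on top for every gene, and Myh4 peaks at 6.27, 5.79 and 5.27 in tumors 12, 14 and 3 but is 1.28 in tumor 6.2.

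Across the 13 tumors the members rose and fell together. The 45 pairs of genes had a median Pearson r of 0.914, from 0.726 (Myh4 and Eno3) to 0.991 (Tnnc2 and Tnni2), and a median Spearman rho of 0.929. All pairs share the same arrays and the genes were chosen as markers of one tissue, so the correlations are given as a description. Without tumors 12 and 14, the farthest from the median of the 10-gene mean, the median r was 0.875 and the lowest 0.438 (Eno3 and Actn3). Set against the mean of the other 9 genes, Tnni2 (r = 0.983) and Ckm (r = 0.982) followed it most closely, and Actn3 (r = 0.868) and Eno3 (r = 0.804) least.

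Of the 22616 other probe sets tested, 27 had an r of at least 0.9 with the mean of the 10 genes and 61 an r of at least 0.8. The most alike were 1450118_a_at (r = 0.994, from -1.86 to 5.37) and 1427445_a_at (r = 0.991), which the table does not pair with genes. The 20 most alike all had their highest value in tumor 12, and without tumors 12 and 14 their r ran from 0.818 upward, with a median of 0.939. They were picked by their r with a mean that is itself highest in tumor 12, so both results follow in large part from the choice. No probe set had an r of -0.9 or lower, and 35 had one of -0.8 or lower. The most opposed, 1428041_at (r = -0.867), varied by little, between -0.13 and 0.15.

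Beta-actin is read on the array by control probe sets at both ends of its transcript, and the 3' value minus the 5' value, both centred log2, served as a measure of RNA integrity. Tumors high in muscle RNA lay on both sides of its middle. It was 0.81 in tumor 12, -0.04 in tumor 14, 0.38 in tumor 3, -0.37 in tumor 6.2 and -0.14 in tumor 10. The highest values, 1.49 and 1.09, were found in tumors 13 and 9 of the middle set, and the lowest, -0.54, in tumor 1.2. With this measure as a covariate, the median difference of the 10 genes between ARF-deficient and INK4a-deficient tumors, described next, was 1.40, against 1.35 without it. Eno3 moved from 0.49 to 0.02 in that comparison. The median moved from 1.06 to 0.76 for ARF heterozygous minus INK4a heterozygous tumors. For INK4a null minus INK4a heterozygous tumors it moved from -0.63 to -0.87.

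The study compared ARF-deficient with INK4a-deficient melanomas. The 10 muscle genes all had a higher mean in the ARF-deficient tumors, but no difference exceeded the spread between tumors, and the groups overlapped for each gene. In limma, none of the 10 passed an adjusted p under 0.05, as did 0% of all probe sets, and none passed an unadjusted p under 0.05, against 4.93% of all. The adjusted p of the 10 genes lay between 0.891 and 0.927. Groups without overlap were found for 0 of the 10 genes, against 0.11% of all probe sets. A difference of at least 1, without regard to p, was found for 8 of the 10 genes, all but Eno3 and Actn3, against 0.924% of all probe sets in that direction. Standard errors of the 10 genes ran from 0.62 to 1.46, against a median of 0.145 over all probe sets. The mark of 1 was thus easier for them to reach, and they move together, so the 8 are not separate findings. The median difference of the 10 genes was 1.35, against 0.01 over all probe sets.

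Tnnc2 had the largest difference of the 10. In ARF-deficient tumors its lowest, median and highest values were -2.10, 2.03 and 5.65, against -2.79, -1.04 and 3.87 in INK4a-deficient tumors. ARF-deficient tumors averaged 1.80 ± 2.80 (SD, n = 6), against -0.26 ± 2.88 (SD, n = 7) for INK4a-deficient tumors, and limma gave a difference of 2.06 with a standard error of 1.46 (adjusted p = 0.891). Within each group, tumors were thus further apart than the group means.

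For Myh4 the lowest, median and highest values were -0.42, 1.70 and 6.27 in ARF-deficient tumors and -0.89, -0.66 and 5.27 in INK4a-deficient tumors. The difference was 1.97 (standard error 1.32, limma adjusted p = 0.891). Atp2a1 had the smallest unadjusted p of the 10 in limma, 0.119, with a difference of 1.41 (standard error 0.85). It reached 3.75 in ARF-deficient and 1.89 in INK4a-deficient tumors, whereas the medians were 0.17 and -1.15. Eno3 had the smallest difference, 0.49 (standard error 0.62), and its mean was 0.01 ± 1.41 (SD, n = 6) in ARF-deficient tumors, against -0.48 ± 1.01 (SD, n = 7) in INK4a-deficient tumors.

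The other 6 differences ran from 0.83 (Actn3, standard error 0.67) to 1.60 (Tnni2, standard error 1.17). The exact permutation test of means gave two-sided p-values from 0.162 (Atp2a1) to 0.492 (Eno3), with no adjusted p under 0.9. The size of the shift depended on single tumors of both groups. Leaving out 1 array at a time gave a median difference of the 10 genes from 0.71 without tumor 12 to 1.76 without tumor 6.2. The median difference was 0.72 in the 8 tumors whose number has no decimal ending, of which 6 are ARF-deficient. What the ending stands for is not stated in the labels. In none of these fits did a muscle gene pass an adjusted p under 0.05.

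**Figure D3:**
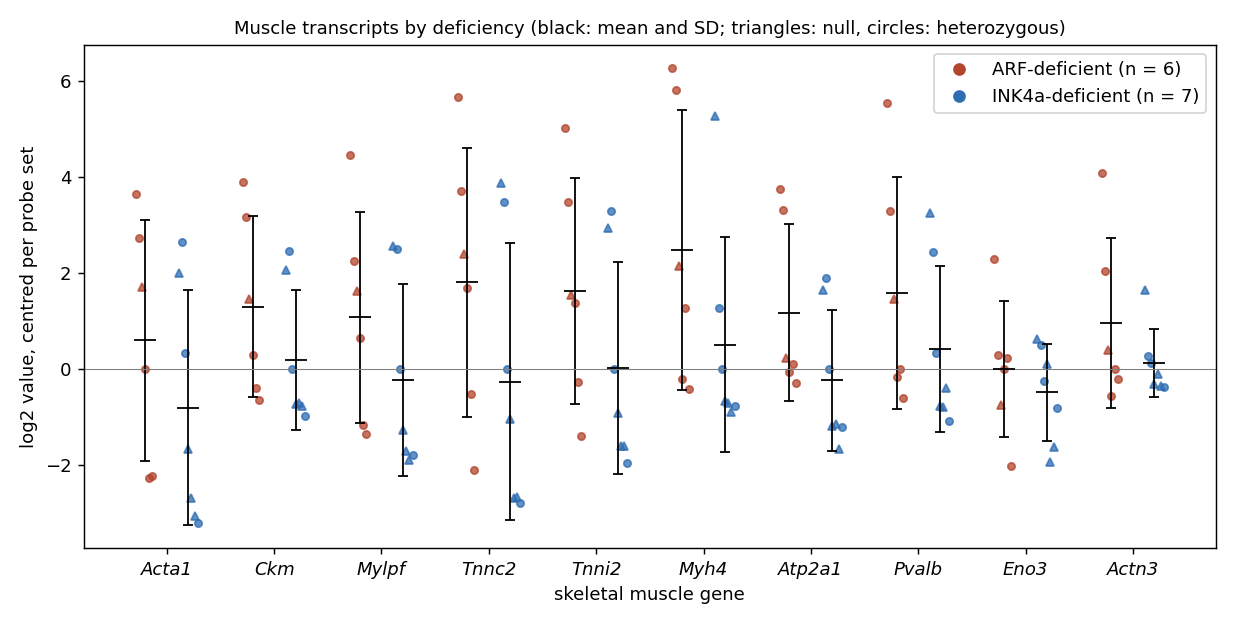
Log2 value, centred per probe set, of each muscle gene in the 6 ARF-deficient (red, left of each pair) and the 7 INK4a-deficient melanomas (blue), 1 point per tumor, with the mean and SD in black (triangles, null; circles, heterozygous). For Tnnc2 the means are 1.80 and -0.26 and the SDs 2.80 and 2.88, and the points of the groups overlap for every gene.

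At one zygosity, the 5 ARF heterozygous tumors were set against the 3 INK4a heterozygous tumors in a fit with 4 groups. All 10 differences were above 0, with a median of 1.06 against 0.04 over all probe sets, and none passed. In limma, 0 of the 10 genes had an adjusted p under 0.05, against 0.00442% of all probe sets, and 0 of the 10 an unadjusted p under 0.05, against 13.1% of all. At least 1 was reached by 6 of the 10, against 1.4% of all in that direction. Here too the mark was easier for these genes to reach, with standard errors from 0.86 to 2.06, against a median of 0.18 over all probe sets. Myh4 had the largest difference: it was -0.20, -0.42, 1.27, 5.79 and 6.27 in ARF heterozygous tumors, against -0.76, 0.00 and 1.28 in INK4a heterozygous tumors. Only tumors 12 and 14 lay above the INK4a heterozygous tumors, and the difference was 2.37 (standard error 1.87, limma adjusted p = 0.626). Acta1 differed by 0.45 (standard error 1.76). The median difference of the 10 genes was 0.22 without tumor 12, 0.64 without tumor 14, 0.03 without tumor 15 and 1.91 without tumor 6.2, so that it rested on single tumors of both groups. Differences below 0 were found in 9 cases, for 5 genes over 4 of the 19 alternatives. Among them were Acta1 without tumor 15 (-1.11), without tumor 12 (-0.37) or without tumor 14 (-0.14) and Eno3 with the beta-actin covariate (-0.87). Several of the 19 could not alter these differences. They were leaving out a tumor of neither group, the variance trend, robust eBayes and the fit of the heterozygous tumors alone.

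Among INK4a-deficient tumors, the null tumors were set against the heterozygous ones, again with no muscle gene past the threshold. In limma, 0 of the 10 had an adjusted p under 0.05, against 0.0398% of all probe sets, and 0 of the 10 an unadjusted p under 0.05, against 13.1% of all. The median difference was -0.63, against 0.04 over all probe sets, with 8 genes lower and Myh4 and Actn3 higher in null tumors. A difference of -1 or lower was found for Acta1 alone, 1 of the 10, against 3.84% of all probe sets in that direction. Acta1 was -3.04, -2.69, -1.65 and 1.99 in null tumors, against -3.19, 0.33 and 2.63 in heterozygous tumors. Each group thus held high and low tumors, and the difference was -1.27 (standard error 1.84, limma adjusted p = 0.840). Myh4 differed by 0.58 (standard error 1.96), with 1 null tumor, tumor 3, at 5.27. The sign of the median turned with the choice of arrays and scaling: it was 0.40 without tumor 6.2 and 0.25 with quantile normalization. It was -1.39 without tumor 15, -1.39 without tumor 3, -0.23 without tumor 1.2 and -0.25 without tumor 2.2.

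**Figure D4:**
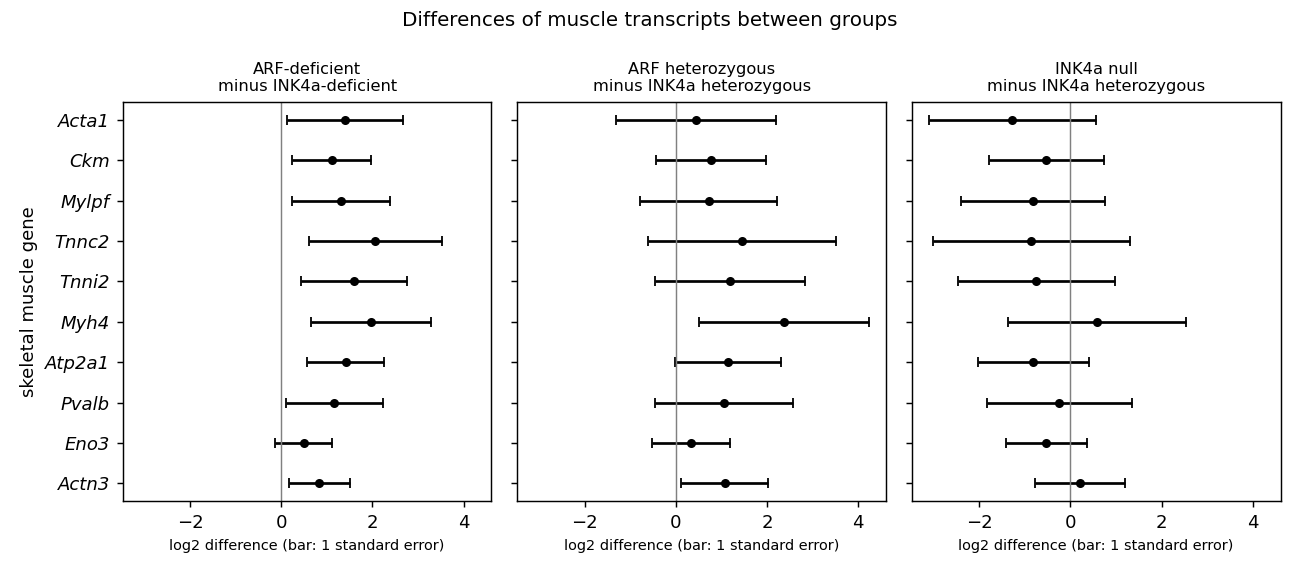
Log2 difference of each muscle gene (rows) in 3 comparisons, with bars of 1 standard error from limma: ARF-deficient minus INK4a-deficient (left), ARF heterozygous minus INK4a heterozygous (middle) and INK4a null minus INK4a heterozygous (right). The medians of the 10 differences are 1.35, 1.06 and -0.63, and no gene passed an adjusted p under 0.05.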

How the data were processed

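RNA of 13 melanomas was hybridized to Affymetrix mouse arrays, 1 per tumor. The authors deposited log2 values (base not stated, taken as 2) of 22690 probe sets made in GeneSpringGX. The sources used here do not say how probes were summarized or arrays normalized. All 22690 rows have a median of 0 over the 13 arrays. Medians of single arrays ran from -0.05 to 0.05. Precision is limited by the number of arrays. The authors' list of changed probe sets, with values of unstated scale per tumor, was not used. Tumors were grouped by genotype label.

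The 64 control probe sets were left out. The remaining 22626 were fitted in R 4.3.3 with lmFit and eBayes of limma 3.58.1 (without a variance trend, since centred means carry no level; two-sided; Benjamini-Hochberg over all 22626; threshold 0.05), checked on simulated data. ARF-deficient and INK4a-deficient tumors were compared with zygosities pooled; the other comparisons used 4 groups. The marks of 1 and 2 on the log2 scale are descriptive. Alternatives were the variance trend, robust eBayes, quantile normalization, array weights, zygosity, subsets of arrays, exact tests (all splits into 6 and 7 tumors) and leaving out each array.

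All members were named, with the probe sets most like their mean (the first 20 by Pearson r). Members and lists were chosen with earlier results of these data known. The 11 other gene lists (further sarcomere, slow fiber, coupling, metabolic, myogenic and smooth muscle genes, and melanocyte, keratinocyte, adipocyte, endothelial and Schwann cell markers) are not analysed here, because no table used here names the genes of the other probe sets.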

Additional observations from a re-analysis of the deposited data

Results flagged for a closer look

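Of 44 sets of values examined (the 10 genes and their mean in ARF-deficient, INK4a-deficient, ARF heterozygous and INK4a null tumors), in 10 the gap between the highest tumor and the next, divided by the group's range, exceeded Dixon's critical value (0.829 for 4 tumors, 0.568 for 7). Chance exceeds it in about 1 in 20, but the sets share tumors and the genes move together, so the 10 are not separate findings. All were INK4a null tumor 3. Among the 4 INK4a null tumors it stood at 2.07 for Ckm (the next tumor at -0.70), 2.55 for Mylpf (next -1.27), 2.94 for Tnni2 (next -0.92), 5.27 for Myh4 (next -0.66), 1.65 for Atp2a1 (next -1.15), 3.25 for Pvalb (next -0.40) and 1.64 for Actn3 (next -0.09). For the mean of the 10 genes it stood at 2.59, with the next null tumor at -0.84. Among all 7 INK4a-deficient tumors it stood apart for Myh4, at 5.27 against 1.28 in tumor 6.2, and for Actn3, at 1.64 against 0.27 in tumor 6.2. The number of tumor 3 has no decimal ending, unlike those of the other 3 null tumors, and its part in these values was not tested.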

How the results depend on the processing

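No muscle gene passed an adjusted p under 0.05 in any of the comparisons or alternatives run; the lowest adjusted p was 0.606 over 22 alternatives for ARF-deficient minus INK4a-deficient, 0.238 over 19 for the heterozygous tumors and 0.549 over 19 for INK4a null minus heterozygous. Between ARF-deficient and INK4a-deficient tumors, 0 genes had an unadjusted p under 0.05, but 1 (Tnnc2) did with array weights, and leaving out single arrays gave 0 to 1 (Myh4, without tumor 3). All 10 genes kept a positive difference there in all 22, with a median from 0.71 to 1.78. The variance trend, robust eBayes and the exact tests keep the main difference, so they could not change its sign. Most of the others each left out a single array, and the genes move together, so the 22 are not separate checks. Between INK4a null and heterozygous tumors, the median of -0.63 became 0.25 with quantile normalization and 0.061 with array weights, and leaving out single arrays gave -1.39 to 0.40. With quantile normalization, 5 muscle genes exceeded 2 in tumor 10 and 0 in tumor 6.2. The cause was not tested. Over all probe sets, array weights raised the calls at an adjusted p under 0.05 to 1820, against 1, for the heterozygous tumors. For INK4a null minus heterozygous they raised the calls to 3239, against 9. None of these calls was 1 of the 10 muscle genes. Without tumor 5.2 the calls were 104 and 423. Leaving out another single array gave up to 1 and up to 34, and the other fits gave 0 to 1 and 0 to 14. The fits with the beta-actin ratio or without decimal endings, and leaving out single arrays for the correlations (median r from 0.882 to 0.926), were chosen after seeing the data. Other probe sets of the same genes were not run because they cannot be recognized in the table. The table gives no background, so dim probe sets cannot be singled out. No paired analysis was possible because the mouse of each tumor is not given, and the tumor numbers name single tumors.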
